A study of Mus musculus with 4 samples.

Results

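The interferon response and the sensors that start it were followed through 39 genes in mouse embryonic stem (ES) cells, their epiblast-like aggregates (ELA) and ELA treated with a chromatin inhibitor. The genes were chosen by name, with earlier results of these data known. Their shares set against all genes therefore describe the list and are not a test of it. Every probe of the array whose gene name was on the list was read, which gave 48 probes of 55122 and 39 gene names of 35923. The line was E14Tg2A, of strain 129/Ola, in all groups. Untreated ES cells at day 0 were grown on gelatin in medium with serum and LIF. Untreated ELA were taken at day 2, after culture as floating aggregates in a defined minimal medium. AZA cells were ELA formed for 2 days with 50 nM 5-azacytidine, an inhibitor of DNA methyltransferases, and CHQ cells were ELA formed with 100 µM 5-carboxy-8-hydroxyquinoline, an inhibitor of histone lysine demethylases. Each group had 1 array, hybridised with a pool of RNA from 3 experiments in this single line, so there was no replicate array, no p-value was computed, and a difference describes these 4 pools only. A single-colour Agilent array was used, in which Cy3-labelled RNA binds 60-mer probes and the brightness of a spot stands for the transcript level.

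Type I interferons, such as interferon beta, are secreted when a cell senses viral nucleic acid, and they bind a receptor made of IFNAR1 and IFNAR2. The signal reaches STAT2 and IRF9, parts of a complex that binds a short DNA element, the interferon-stimulated response element (ISRE), before the genes of the response. Another element of interferon-induced genes is the gamma-activated sequence (GAS). In somatic cells, inhibitors of DNA methyltransferases are known to raise these genes, and mouse ES cells are known to make little interferon on infection. The comparison of AZA with ELA asked whether such a response was present in these aggregates.

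Upstream sequence is shown for 6 members, because they are textbook targets and their levels differed in kind: Oas1a, Isg15, Rsad2 and Irf1 were bright on at least 1 array, whereas Ifit1 lay near background and Ifit3 was not well above it on any array. The RefSeq table used here (build GRCm38.p6, from which the 250 bases before each start are used) held 38 windows of 33 members, 4 of them with more than 1 start, and none of Dhx58, Mx1, Mx2, Usp18, Ccl5 and Oas2. The ISRE was searched as GAAA, any 2 bases and GAAA again, or on the other strand TTTC, any 2 bases and TTTC, and the GAS as TTCNNNGAA, which reads the same on both strands. The ISRE letters stood before 11 of the 33 members (33.3%), against 3.46% of 27025 genes and 2.98% of 32851 windows. The GAS letters stood before 8 members (24.2%), against 8.13% of genes and 7.02% of windows, and 1 of the 17 ISRE matches of the members overlapped a GAS match. Neither motif stood before 16 of the 33 members. A match describes the letters only. The windows are Oas1a at chr5:120907526-120907775 (minus strand), Isg15 at chr4:156200819-156201068 (minus), Rsad2 at chr12:26456453-26456702 (minus), Ifit1 at chr19:34640639-34640888 (plus), Ifit3 at chr19:34583279-34583528 (plus) and Irf1 at chr11:53769764-53770013 (plus), each 5′ to 3′, with ISRE matches in capitals for the first 5 and the GAS match in capitals for Irf1.
Oas1a: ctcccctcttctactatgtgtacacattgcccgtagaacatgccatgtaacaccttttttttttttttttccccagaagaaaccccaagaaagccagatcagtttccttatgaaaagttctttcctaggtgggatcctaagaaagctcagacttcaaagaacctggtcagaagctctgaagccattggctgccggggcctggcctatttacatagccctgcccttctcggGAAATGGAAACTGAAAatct
Isg15: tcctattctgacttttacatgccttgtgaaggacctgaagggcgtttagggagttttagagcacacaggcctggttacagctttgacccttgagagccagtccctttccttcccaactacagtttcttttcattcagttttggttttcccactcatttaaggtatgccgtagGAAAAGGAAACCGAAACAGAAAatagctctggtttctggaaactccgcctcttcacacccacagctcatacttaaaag
Rsad2: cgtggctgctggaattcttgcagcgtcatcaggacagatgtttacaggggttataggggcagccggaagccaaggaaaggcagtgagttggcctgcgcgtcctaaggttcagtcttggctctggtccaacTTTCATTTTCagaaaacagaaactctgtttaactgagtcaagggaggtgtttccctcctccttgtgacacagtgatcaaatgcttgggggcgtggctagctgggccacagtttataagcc
Ifit1: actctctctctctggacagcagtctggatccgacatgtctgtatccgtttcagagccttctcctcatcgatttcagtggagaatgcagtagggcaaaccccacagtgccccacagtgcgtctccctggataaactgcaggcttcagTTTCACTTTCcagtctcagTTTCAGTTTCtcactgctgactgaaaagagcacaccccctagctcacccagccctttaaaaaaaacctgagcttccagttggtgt
Ifit3: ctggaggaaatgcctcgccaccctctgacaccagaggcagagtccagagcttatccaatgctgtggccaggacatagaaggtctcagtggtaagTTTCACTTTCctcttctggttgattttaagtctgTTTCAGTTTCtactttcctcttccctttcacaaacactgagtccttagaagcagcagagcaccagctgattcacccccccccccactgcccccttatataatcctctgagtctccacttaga
Irf1: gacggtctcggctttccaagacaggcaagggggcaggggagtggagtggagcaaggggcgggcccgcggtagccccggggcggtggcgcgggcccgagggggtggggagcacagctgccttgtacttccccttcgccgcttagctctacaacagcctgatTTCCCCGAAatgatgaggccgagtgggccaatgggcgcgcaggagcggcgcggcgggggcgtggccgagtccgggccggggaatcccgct
Oas1a held 2 overlapping ISRE matches and Isg15 held 3, whereas Ifit1 and Ifit3 held 2 separate ones each. The Irf1 window had 25 CpG dinucleotides and the Ifit3 window 1, against a median of 6 over the windows of the members and of 6 over all windows.

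Across the whole array, 55.1% to 69.2% of gene spots were marked as well above background. The ES and ELA arrays lay on the first slide and the AZA and CHQ arrays on the second, each slide with its own scan, and the local background had a median of 59 (ES) and 77 (ELA) intensity units on the first slide and of 14 (AZA) and 13 (CHQ) on the second. Treatment and slide therefore cannot be told apart in AZA or CHQ against ELA or ES, while ELA against ES and CHQ against AZA lay within a slide. Repeated spots of 432 probes differed within an array by an SD of 0.12 to 0.17 (log2), so that reading error alone gives a difference between arrays an SD of 0.19 to 0.23. Pou5f1 and Sox2, factors that define pluripotent cells, were well above background on all 4 arrays, as were all 8 markers of ES and epiblast cells. Of these, Zfp42 (Rex1) read 15.80 in ES, 11.99 in ELA, 15.72 in AZA and 15.04 in CHQ on the log2 scale, and Nanog 15.03, 12.53, 15.39 and 12.54 in the same order. Pou5f1 read 14.95, 14.46, 14.05 and 13.56 and Lin28a 15.23, 15.78, 14.21 and 13.49, both lower in each treatment than in either untreated array. The summed log2 levels of the 8 markers were 116.23, 111.10, 114.86 and 110.34. Of 9 leukocyte markers on the array, 7, 5, 7 and 7 were well above background in ES, ELA, AZA and CHQ, with summed log2 levels of 73.54, 72.75, 74.19 and 75.07, and Lyz2 and Tyrobp were so on none. Of 10 fibroblast markers, 6, 6, 8 and 8 were well above background (sums 76.49, 81.02, 79.57 and 78.32), with Lum and Postn on none. Of 4 endothelial markers, 3 were well above background on each array (sums 37.18, 34.35, 37.07 and 37.80), with Cdh5 on none. Ptprc, Cd14 and Col3a1 were not well above background in ELA, Pdgfra in ES and ELA, and Dcn in ES. The remaining markers of these 3 lists were well above background on all 4 arrays. In the order ES, ELA, AZA and CHQ, Itgam of the leukocyte list read 13.7, 13.8, 14.3 and 14.2. Thy1 of the fibroblast list read 12.1, 13.6, 12.8 and 11.3, and Kdr of the endothelial list 13.0, 13.2, 12.2 and 12.1. The part of these markers in the results was not tested.

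Levels are log2 normalised intensities, on which a difference of 1 is a 2-fold difference, and they compare arrays for the same probe but not one gene with another. Of the 39 members, 29 (74.4%) were well above background on all 4 arrays, against 57.6% of all genes, 6 on 1 to 3 arrays, and Ifnb1, Tlr3, Ifit3 and Ifi44 on none. By array the number was 31 in ES, 30 in ELA, 34 in AZA and 35 in CHQ. Of all gene spots, 60.6%, 55.1%, 69.1% and 69.2% were so in the same order. The rise in AZA and CHQ is therefore not read as a trait of the members. Of the 29 members well above background on every array, the lowest of the 4 levels was found in ELA for 15, in CHQ for 10, in ES for 2 and in AZA for 2. The same count is not given over all genes, so it is not read as a trait of the members. ELA was also the array with the highest median background (77). A difference passed the size rule when its size was 1 or more, provided that the mean of both levels reached 7.5 and that Feature Extraction had marked the probe as well above background on one array or both. In all, 20 members passed in at least 1 of 6 comparisons and 19 in none. In such bulk RNA, fewer cells expressing a gene and less RNA per cell cannot be told apart.

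**Figure D1:**
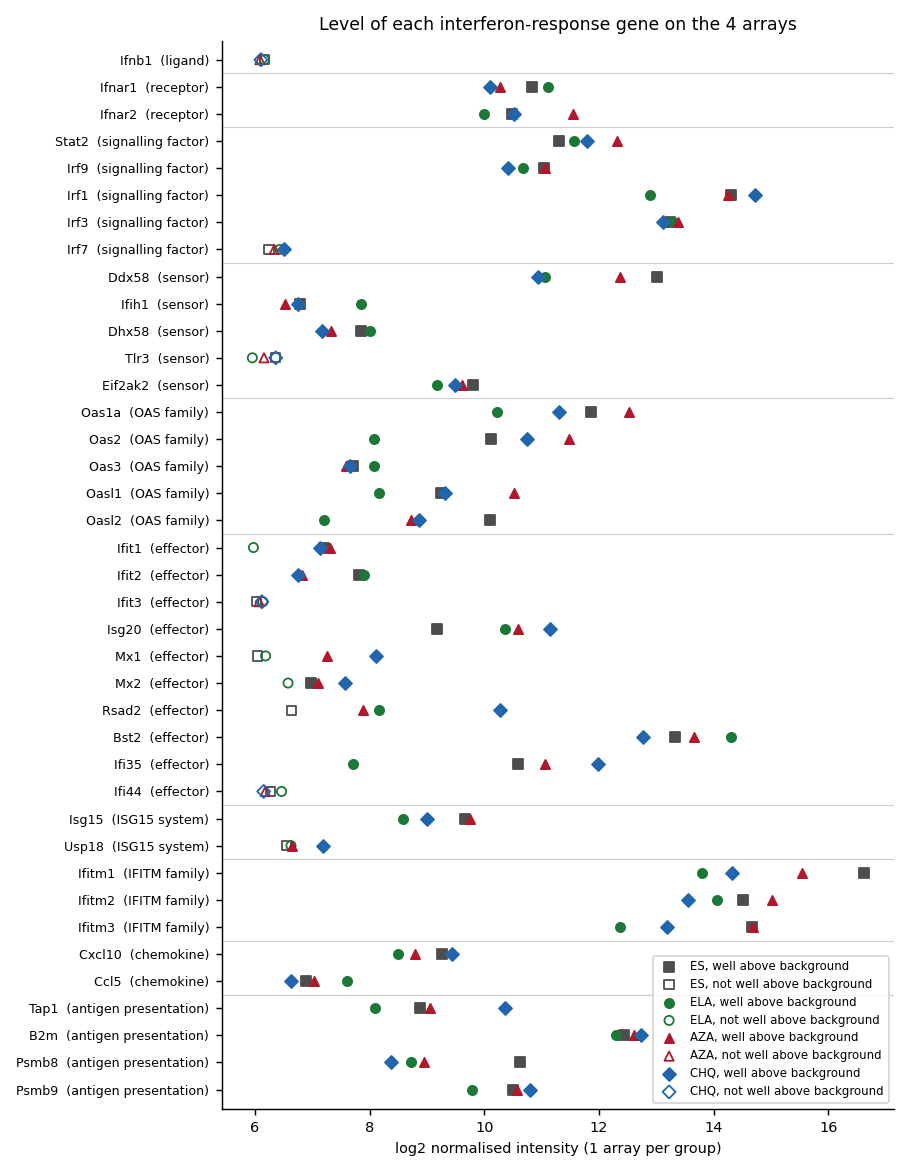
Level of each of the 39 genes, grouped by role, as log2 normalised intensity (x axis) on the ES, ELA, AZA and CHQ arrays, with filled symbols for probes well above background and open symbols for the others. Ifnb1, Tlr3, Ifit3 and Ifi44 have open symbols on all 4 arrays, and the ELA symbol is the leftmost for Oas1a, Oas2, Oasl1, Oasl2, Ifi35, Ifitm1 and Ifitm3.

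In AZA against ELA, 11 members were higher past the size rule and 0 were lower. They were Ifnar2, Irf1, Ddx58, Oas1a, Oas2, Oasl1, Oasl2, Ifi35, Isg15, Ifitm1 and Ifitm3, and their differences ran from 1.17 for Isg15 to 3.39 for Oas2. Of the 10 that had a promoter window, 2 held the ISRE letters and 3 the GAS letters. These were 40.7% of the 27 members bright enough for the rule, while over all 19106 genes bright enough 14.2% were higher, 11.4% lower and 25.6% either. The median difference over all 39 members, dim ones included, was 0.39, against -0.04 over all 35923 genes, dim ones included. With the arrays scaled on 7 E1A control probes in place of quantile normalisation, 9 of the 39 members were higher and 3 lower. Of all genes bright enough, 10.5% were then higher and 21.7% lower, and their median moved from -0.07 to -0.43. The number of members bright enough under that scaling is not given, here or below, so these member counts are not shares. The other 12 members were too dim for the rule, namely Ifnb1, Irf7, Ifih1, Tlr3, Ifit1, Ifit2, Ifit3, Mx1, Mx2, Ifi44, Usp18 and Ccl5.

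In CHQ against ELA, 9 members were higher past the size rule (Irf1, Oas1a, Oas2, Oasl1, Oasl2, Rsad2, Ifi35, Tap1 and Psmb9) and 2 were lower (Ifnar1 and Bst2). Of the 27 members bright enough, 33.3% were higher and 7.41% lower, against 14.8% and 11.9% of all 19113 genes, of which 26.6% passed in either direction. The median over all 39 members was 0.41, against -0.04 over all 35923 genes. Scaled on the control probes, 6 of the 39 members were higher and 4 lower. Of all genes bright enough under that scaling, 8.83% were higher and 33% lower, with a median of -0.63. This comparison and AZA against ELA share the ELA array, so their values are only set side by side.

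In ELA against ES, both on the first slide, 11 members were lower past the size rule (Irf1, Ddx58, Oas1a, Oas2, Oasl1, Oasl2, Ifi35, Isg15, Ifitm1, Ifitm3 and Psmb8) and 1, Isg20, was higher. The lower members were 40.7% of the 27 bright enough, against 5.59% of all 18896 genes, and the higher one 3.70% against 4.46%, where 10.0% of all genes passed in either direction. The median over the 39 members was -0.40, against -0.02 over all 35923 genes. Scaled on the control probes, 0 of the 39 members were higher and 17 lower, and Isg20 came to 0.64. Of all genes bright enough under that scaling, 1.53% were higher and 18.9% lower, with a median of -0.59. This comparison uses the same ELA array as the treated ones.

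In AZA against ES, 5 members were higher past the size rule and 3 were lower. The higher ones were Ifnar2, Stat2, Oas2, Oasl1 and Isg20, the lower ones Oasl2, Ifitm1 and Psmb8, and the median over the 39 members was 0.09, against -0.04 over all 35923 genes. The 5 higher members were 19.2% of the 26 bright enough (all 19136 genes, 11.2%), the 3 lower ones 11.5% (all genes, 8.27%), and 19.5% of all genes passed in either direction. This split changed with the scaling, since on the control probes 0 of the 39 members were higher and 10 lower. Of all genes bright enough under that scaling, 3.5% were higher and 51.6% lower, with a median of -1.03. In CHQ against ES, Isg20, Rsad2, Ifi35 and Tap1 were higher and Ddx58, Oasl2, Ifitm1, Ifitm3 and Psmb8 were lower, or 14.8% and 18.5% of 27 members. Over all 19134 genes 12.7% were higher, 10.3% lower and 23% either. On the control probes 2 of the 39 members were higher and 16 lower, while of all genes bright enough 3.74% were higher and 61.1% lower, with a median of -1.24.

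Within the second slide, CHQ was below AZA for 7 members (Ifnar2, Ddx58, Oas1a, Oasl1, Ifitm1, Ifitm2 and Ifitm3) and above it for 2 (Rsad2 and Tap1). These were 25.9% and 7.41% of 27 members, against 4.81% and 5.53% of all 19145 genes, of which 10.3% passed in either direction. The median over the 39 members was -0.06, against -0.02 over all 35923 genes.

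**Figure D2:**
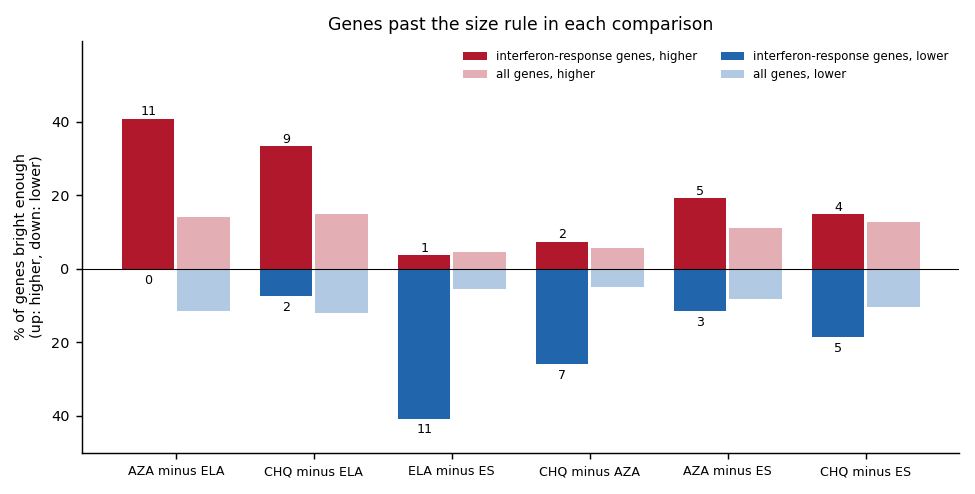
Share of genes bright enough for the size rule that were higher (upward) or lower (downward) in each of the 6 comparisons, in % on the y axis, with dark bars for the interferon-response genes and pale bars for all genes, and the number of members beside each dark bar. In AZA against ELA 11 members lie upward and 0 downward, and in ELA against ES 1 upward and 11 downward.

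The ligand of the list, Ifnb1 (interferon beta; probe at chr4:88168023-88168082, minus strand, mm9), read 6.16 in ES, 6.17 in ELA, 6.09 in AZA and 6.10 in CHQ. None of these was well above background, so a transcript of Ifnb1 was not detectable on any array. Ifnar1, a chain of the type I receptor, read 10.83, 11.11, 10.27 and 10.10 in the same order of arrays, and was 0.84 lower in AZA and 1.01 lower in CHQ than in ELA. Another Ifnar1 probe gave -0.73 and -1.28, but the remaining one gave 0.13 and -0.32, so the direction in AZA depended on the probe. Ifnar2, the other chain, read 10.48, 10.00, 11.55 and 10.51, and AZA was the highest array by 1.04 or more. Its difference from ELA was 1.55 in AZA and 0.51 in CHQ, and AZA stood 1.08 above ES.

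Among the factors that carry the signal, Irf1, a transcription factor that interferons induce, had its low array in ELA. It read 14.31 in ES, 12.90 in ELA, 14.25 in AZA and 14.72 in CHQ, which put AZA 1.36 and CHQ 1.83 above ELA, and ELA 1.41 below ES. A second Irf1 probe was not well above background on any array. Stat2, a part of the ISRE-binding complex, read 11.30, 11.57, 12.32 and 11.79, with AZA 0.75 above ELA and 1.02 above ES. Irf9, the DNA-binding part of that complex, read 11.04, 10.67, 11.06 and 10.41, and its 4 levels spanned less than 1. Irf3, which the sensors activate before any interferon is made, was nearly level at 13.24, 13.30, 13.39 and 13.12. At the lowest of 6 alternatives of processing, CHQ minus ES was -1.62 for Irf9 and -1.38 for Irf3. Irf7, the factor that amplifies the response and is itself induced by interferon, read 6.25, 6.43, 6.34 and 6.51 and was well above background in CHQ only, with no bound that held under both scalings.

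The sensors differed among themselves in which array was high. Ddx58 (RIG-I, a sensor of viral RNA ends) read 13.02 in ES, 11.07 in ELA, 12.37 in AZA and 10.93 in CHQ, so that AZA stood 1.30 above ELA and CHQ 0.13 below it. Its second probe gave 1.12 and -0.01 for the treatments, and -0.95 for ELA against ES where the first gave -1.95. Ifih1 (MDA5, a sensor of long RNA duplexes) read 6.78, 7.85, 6.52 and 6.75, with ELA the highest, and was too dim for the rule against AZA and CHQ at -1.33 and -1.10. A second Ifih1 probe was not well above background on any array. Dhx58 (LGP2, which modulates the other sensors) read 7.85, 8.01, 7.33 and 7.17, and was 0.68 lower in AZA and 0.85 lower in CHQ than in ELA. These differences reached 1 in size under 3 (AZA) and 4 (CHQ) of 6 alternatives of processing. Eif2ak2 (PKR, a kinase that halts translation when it binds such RNA) read 9.81, 9.17, 9.62 and 9.50, all within 1 unit. At the lowest of the alternatives, ELA minus ES was -1.18 and CHQ minus ES -1.25. Tlr3, the endosomal sensor, was not well above background on any array, with levels between 5.96 and 6.36.

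The OAS family, which makes or resembles the enzymes that make the 2-5A messenger activating RNase L, held 4 of the 11 members higher in AZA. Oas2 (probe at chr5:121180343-121180402, minus strand) read 10.12 in ES, 8.08 in ELA, 11.48 in AZA and 10.75 in CHQ. It stood 3.39 above ELA in AZA and 2.66 in CHQ, and AZA was also 1.36 above ES. Oas1a, whose window with 2 ISRE matches is printed above, read 11.86, 10.23, 12.53 and 11.30, a difference from ELA of 2.30 in AZA and 1.07 in CHQ, and its second probe gave 1.81 and 0.53. Oasl1, a catalytically inactive relative, read 9.25, 8.16, 10.51 and 9.32, 2.36 above ELA in AZA and 1.17 in CHQ. Oasl2 differed from the others in where its high array lay. It read 10.09, 7.20, 8.71 and 8.86, so that both treatments stood above ELA, by 1.52 and 1.66, but the difference from ES was -1.38 in AZA and -1.23 in CHQ. Oas3 read 7.71, 8.08, 7.60 and 7.66, with ELA the highest and its differences below 1 in size, except for CHQ against ELA and each treatment against ES on the control probes (-1.01, -1.02 in AZA and -1.12 in CHQ). Genes of this family are similar in sequence, and cross-hybridisation between their transcripts was not tested.

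**Figure D3:**
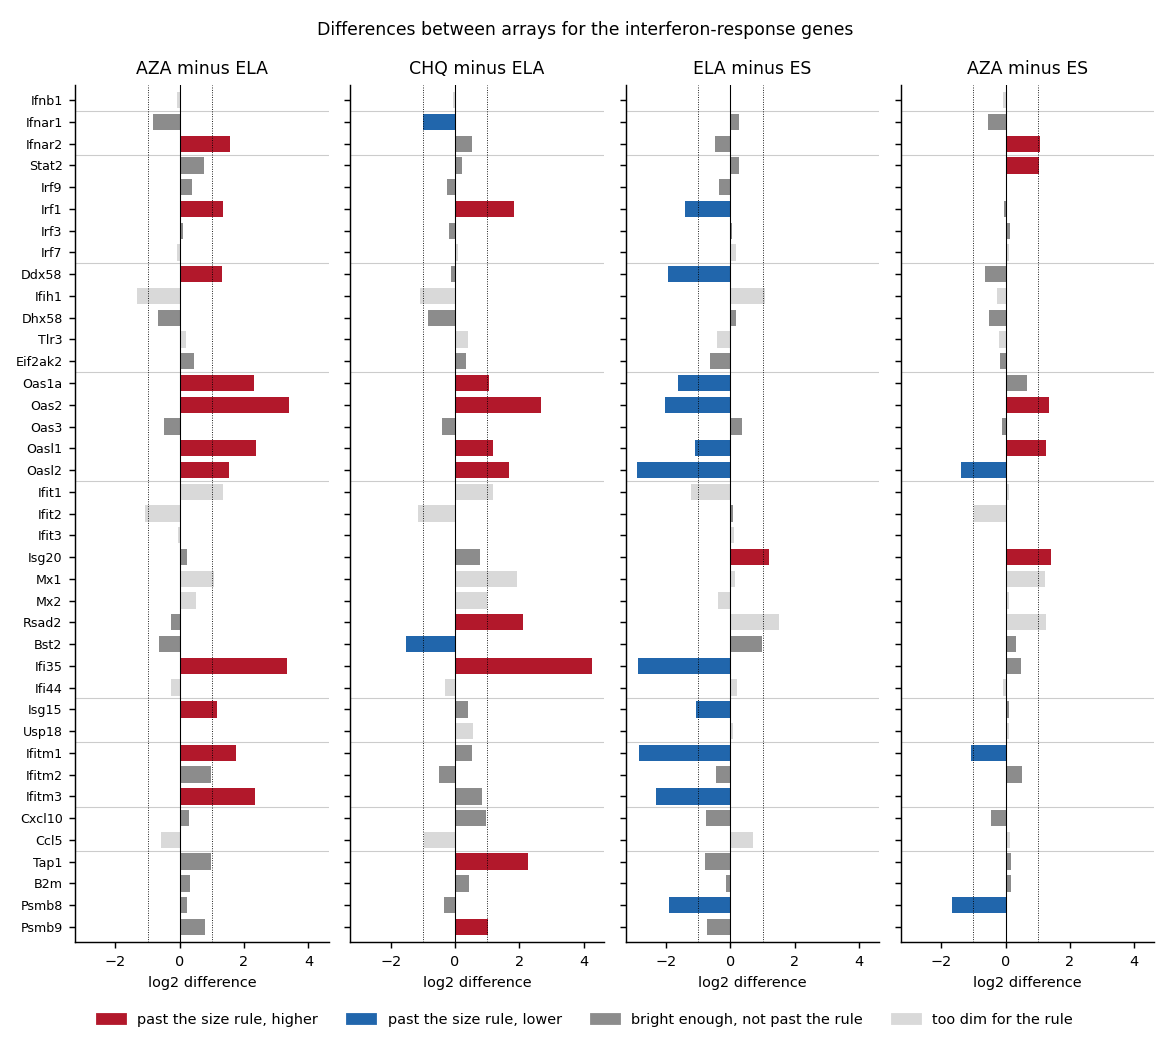
Log2 difference (x axis) of each of the 39 genes (y axis, in the order of their roles) in AZA minus ELA, CHQ minus ELA, ELA minus ES and AZA minus ES, with dotted lines at -1 and 1. Red bars passed the size rule as higher, blue bars as lower, and pale bars were too dim for it. Oas2 has a bar of 3.39 in the first panel and 1.36 in the last, Ifitm3 of 2.32 and 0.02. The first 3 panels share the ELA array.

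Of the 10 effectors, Ifi35, an interferon-induced protein that binds NMI, had the widest gap to ELA. Its probe (chr11:101319011-101319070, plus strand) read 10.59 in ES, 7.71 in ELA, 11.06 in AZA and 11.98 in CHQ, with AZA 3.35 and CHQ 4.27 above ELA. ELA lay below all the other arrays, and its difference from ES on the same slide was -2.87. Rsad2 (viperin, which makes a nucleotide that stops viral polymerases) had its high array in CHQ. It read 6.64, 8.16, 7.89 and 10.27 and was not well above background in ES. CHQ exceeded ELA by 2.11 and AZA by 2.38, and it exceeded ES by at least 12.36-fold, or 6.15-fold with scaling on the control probes. Isg20, an exonuclease, read 9.17, 10.36, 10.59 and 11.14, lowest in ES, with ELA 1.19 above ES and AZA 0.23 above ELA. Its second probe gave 1.12 and 0.21 for the same differences. Bst2 (tetherin, which holds budding virus at the membrane) was lower in both treatments than in ELA. It read 13.33, 14.30, 13.66 and 12.77, highest in ELA, so that AZA was 0.65 and CHQ 1.53 lower than ELA.

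Ifit1, Ifit2, Ifit3, Ifi44, Mx1 and Mx2 were too dim for the size rule in AZA and CHQ against ELA. Ifit1, an RNA-binding protein that blocks viral translation, read 7.21 in ES, 5.97 in ELA, 7.31 in AZA and 7.14 in CHQ. It was not well above background in ELA, and the excess over ELA was at least 1.48-fold in AZA, 1.32-fold in CHQ and 1.39-fold in ES, but with scaling on the control probes a bound remained for ES only (1.68-fold). Ifit2 read 7.81, 7.90, 6.82 and 6.76, lower in both treatments than in ELA by 1.08 and 1.14 but too dim for the rule. Ifit3 lay between 6.03 and 6.14, and Ifi44 between 6.15 and 6.47, with no array well above background. Mx1, a GTPase that traps viral ribonucleoproteins, read 6.05, 6.19, 7.26 and 8.11 and was well above background only in AZA and CHQ. Against ELA that is at least 1.43-fold in AZA and at least 2.58-fold in CHQ, and on the control probes no bound for AZA and at least 1.53-fold for CHQ. Mx2 read 6.98, 6.58, 7.09 and 7.57 and was not well above background in ELA, which CHQ exceeded by at least 1.77-fold (1.01-fold on the control probes).

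In the ISG15 system, Isg15, a ubiquitin-like protein joined to others during the response, was higher in AZA than in ELA, whereas Usp18, the protease that removes it, was dim. Isg15 read 9.66 in ES, 8.59 in ELA, 9.75 in AZA and 8.99 in CHQ, and AZA stood 1.17 and CHQ 0.41 above ELA. AZA and ES differed by 0.09, within the reading error of repeated spots, but they lay on different slides. On the control probes AZA minus ELA was 0.89 and ELA minus ES was -1.59, so AZA and ES no longer matched. The second Isg15 probe was not well above background in ELA. Usp18 read 6.55, 6.63, 6.64 and 7.19 and was well above background only in AZA and CHQ.

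The IFITM genes encode membrane proteins that block the entry of viruses, and some are also known from germ cells and pluripotent cells. Ifitm3 read 14.66 in ES, 12.36 in ELA, 14.68 in AZA and 13.19 in CHQ. AZA stood 2.32 above ELA and 0.02 above ES, and CHQ 0.83 above ELA. Under 6 alternatives of processing, AZA minus ES ran from -1.16 to 0.03. Ifitm1 read 16.62, 13.79, 15.55 and 14.32, with ES the highest, so that AZA was 1.75 above ELA but 1.08 below ES. Ifitm2 read 14.52, 14.05, 15.02 and 13.55, and it did not pass the rule against ELA, at 0.96 in AZA and -0.50 in CHQ. All 3 were lower in CHQ than in AZA on the same slide, by 1.22 for Ifitm1 and 1.46 for Ifitm2, and for Ifitm3 by the gap between 14.68 and 13.19. The members are close in sequence, and cross-hybridisation was not tested here either.

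Of the chemokines, Cxcl10, which attracts T cells, read 9.25 in ES, 8.49 in ELA, 8.79 in AZA and 9.44 in CHQ, with CHQ 0.95 above ELA, a difference that reached 1 under 4 of 6 alternatives of processing (0.51 to 1.23), and a second probe was dim. Ccl5, another attractant of T cells, read 6.88, 7.60, 7.02 and 6.63 and was too dim for the rule in all 6 comparisons. Of the genes of antigen presentation, Tap1, a subunit of the peptide transporter, read 8.88, 8.10, 9.06 and 10.36, which put AZA 0.96 and CHQ 2.26 above ELA. The difference in AZA reached 1 under 3 of 6 alternatives (0.61 to 1.21). Psmb9, a subunit of the immunoproteasome, read 10.51, 9.78, 10.56 and 10.79, 0.78 and 1.01 above ELA. Psmb8, another such subunit, was highest in ES. It read 10.62, 8.73, 8.94 and 8.38, 1.90 lower in ELA than in ES, with AZA still 1.68 and CHQ 2.25 below ES. B2m, the light chain of class I molecules, was level at 12.43, 12.29, 12.61 and 12.74.

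Beyond the 39 members, 5 lists of the same pathway were read, also chosen with earlier results of these data known. Shares of a list, like those of all genes, cover only genes bright enough for the rule. A gene can be bright enough through its brighter array alone. Gbp2, Gbp3 and Xaf1 of the other interferon-induced genes, for instance, passed in both treatments but were not well above background in ELA. Of 13 interferon genes other than Ifnb1 on the array, 8, 7, 9 and 10 were well above background in ES, ELA, AZA and CHQ. Of all gene spots, 60.6%, 55.1%, 69.1% and 69.2% were so. At most 2 of these interferon genes were bright enough for the rule in either treatment against ELA, and none passed. Cross-hybridisation between their transcripts was not tested. Of 16 receptors, kinases and factors, 13 were bright enough in either treatment. Of these, 4 were higher in AZA (30.8%, all genes 14.2%) and 7 in CHQ (53.8%, all genes 14.8%), with 0 lower. The largest in AZA and in CHQ among those well above background on both arrays were Socs3 and Socs1, which restrain cytokine signalling and which other cytokines such as LIF are also known to induce, and Stat3. Socs3 read 13.43 in ES, 10.43 in ELA, 12.55 in AZA and 13.12 in CHQ, Socs1 9.92, 9.40, 11.33 and 11.73, and Stat3 12.72, 11.17, 12.70 and 12.91.

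Of 19 further sensors and adaptors, 16 were bright enough. In AZA 5 were higher and 1 lower (31.2% and 6.25%), and in CHQ 3 were higher and 1 lower (18.8% and 6.25%). The CHQ share was near that of all genes (14.8% higher). Aim2, a sensor of cytosolic DNA, read 10.29, 8.68, 11.39 and 10.24, Zbp1, a sensor of Z-form nucleic acid, 8.59, 7.56, 9.65 and 9.33, and Tmem173 (STING) 8.48, 7.89, 9.31 and 9.47. The lower gene was Tlr7 in both, at -1.08 and -1.34. Of 43 other interferon-induced genes, 12 of 27 bright enough were higher and 3 lower in AZA (44.4% and 11.1%, all genes 14.2% and 11.4%). In CHQ 12 of 26 were higher and 2 lower (46.2% and 7.69%, all genes 14.8% and 11.9%). In ELA against ES, 12 of 29 were lower and 2 higher (41.4% and 6.9%, all genes 5.59% and 4.46%). Lgals3bp was the one furthest above ELA in AZA among those well above background on both arrays, at 8.24 in ES, 7.88 in ELA, 12.27 in AZA and 11.03 in CHQ. Irgm1, a GTPase of cell-autonomous defence, read 11.51, 8.57, 11.77 and 10.44, Zc3hav1 (ZAP, which binds CpG-rich viral RNA) 10.71, 9.05, 11.93 and 11.31, and Parp10 13.33, 12.21, 14.98 and 15.44. The lower genes in AZA were Ifi27l2a at -1.79, Tor3a at -1.20 and Cmpk2 at -1.13, and in CHQ Tor3a at -1.31 and Ifi27l2a at -1.05. Of 13 further genes of antigen presentation, 12 were bright enough, and none passed in AZA. In CHQ 2 were higher and 1 lower (16.7% and 8.33%), near the shares of all genes (14.8% and 11.9%). Nlrc5, the activator of class I genes, was 3.51 and Tapbp 1.10 higher than in ELA, and H2-T23, a class I gene, differed by -1.17. The class I genes H2-K1, H2-D1 and H2-Q7 did not pass, at -0.22, -0.59 and -0.63.

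**Figure D4:**
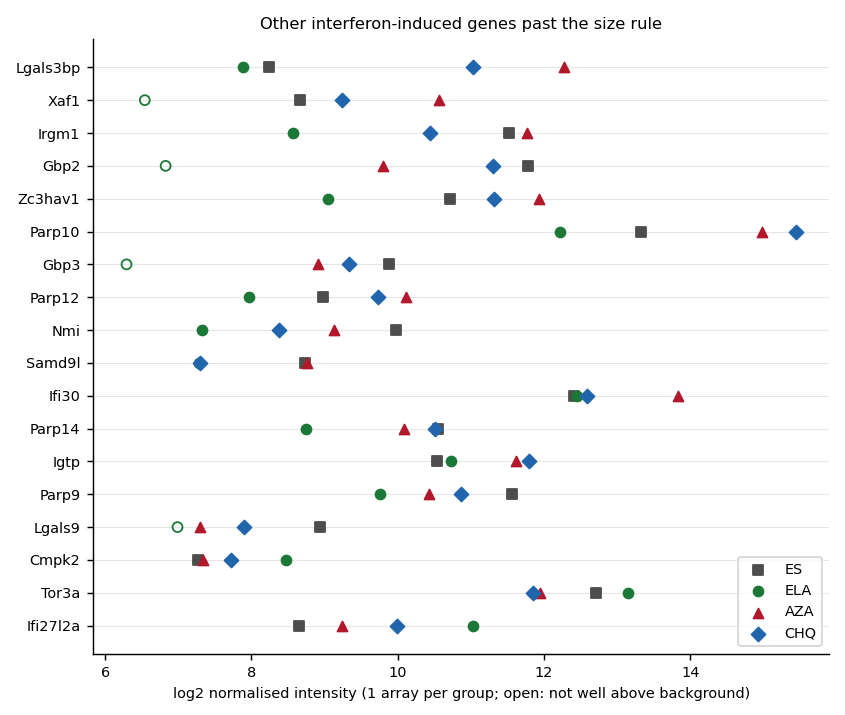
Log2 normalised intensity (x axis) on the ES, ELA, AZA and CHQ arrays of the 18 other interferon-induced genes that passed the size rule in AZA or CHQ against ELA or in ELA against ES, ordered by AZA minus ELA, with open symbols where a probe was not well above background. Lgals3bp lies at 7.88 in ELA and 12.27 in AZA, and Ifi27l2a at 11.04 in ELA and 9.24 in AZA.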

How the data were processed

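Per the labels, total RNA pooled from 3 experiments was labelled with Cy3. Per the file headers, the authors read the scans with Agilent Feature Extraction 10.7.3.1, and the labels name version 9.1. The deposited scanner files hold spot intensity that is not normalised between arrays, and the deposited value table gives log2 values, which per the methods the authors had corrected for background and quantile-normalised in limma.

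From the mean and background intensity, values were computed with limma 3.58.1 in R 4.3.3 (normexp, offset 50, quantile over 4 arrays). Control spots and outlier-flagged spots were then dropped, and spots of a probe averaged. Of 55681 probes, 559 had no usable spot on an array and were left out. A gene took its probe with the highest mean over arrays, under the file's name and mm9 position; the exon or UTR of a probe was not looked up. For a bound, the brighter array was divided by the dimmest signal still marked well above background on the other array, or by the dim probe's own signal if higher. The size rule follows the study's thresholds without its p-value. Text names members called, all members well above background on 4 arrays and, per pathway list, at most 3 rises and 3 falls. Steps were tested on simulated data. Members and lists were chosen with earlier results of these data known. The precision is limited by 1 array per group. The array of the knockdown was not analysed here.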

Additional observations from a re-analysis of the deposited data

How the results depend on the processing

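The counts were recomputed under 8 alternatives of background correction, scaling, source, probe summary and filter. All 60 differences of members that passed the size rule kept their sign under the 6 alternatives of scaling and summary, and 44 stayed at 1 or more in each. Some differences that did not pass reached 1 in size under an alternative. The count of members that passed stayed within 1.5 times in all comparisons but CHQ against ES, where scaling on the E1A control probes gave 18 in place of 9; there the median of all genes moved from -0.10 to -1.24. On the control probes Stat2 and Ifnar2 in AZA against ES came to 0.16 and 0.24, Ifi35 in CHQ against ES to 0.36, and Oas1a, Oasl1 and Psmb9 in CHQ against ELA to 0.65, 0.69 and 0.61. Of all genes that passed in AZA against ELA, 55.6% were higher, and 32.7% on the control probes; the same shares were 55.4% and 21.1% in CHQ against ELA (41.9% with 75th percentile scaling), 44.4% and 7.47% in ELA against ES, 53.5% and 35.8% in CHQ against AZA, 57.5% and 6.35% in AZA against ES (45.7%) and 55.2% and 5.77% in CHQ against ES (37.6%). Averaging over probes brought Irf1 to 0.80 and Isg15 to 0.87 in AZA against ELA. Without a filter on dim probes, 13 of 39 members were higher and 2 lower in AZA against ELA, and 9.52% and 7.49% of all genes. The at-least folds depend on the scaling. No paired analysis was possible because each group has 1 array. A probe not well above background has only a bound, and background was higher on the first slide.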
